A study of Rattus norvegicus with 6 samples.

Results

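The Wnt ligands, their receptors, the secreted Wnt inhibitors and 4 genes of the intracellular arm were compared between the retinas of diabetic and control rats. Members were the protein-coding genes with the names Wnt, Fzd, Sfrp or Dkk followed by a number (without Dkk3), together with Lrp5, Lrp6, Frzb, Wif1, Axin2, Ctnnb1, Tcf7l2 and Lef1. Axin1, which the selection also names, was not analysed here. This gave 43 members among the 34170 genes of the expression table, of which 19 were ligands, 11 receptors, 9 secreted inhibitors and 4 genes of transduction and transcription. Retinas came from 6 male Sprague-Dawley rats that weighed between 100.4 and 110.5 g. The stock is outbred, and the genotype is recorded as WT for controls and as Diabetic for treated rats. The 3 diabetic rats had received streptozotocin, a toxin of the insulin-producing beta cells, into the peritoneum at 60 mg/kg on 5 successive days after a 12 h fast. Blood glucose above 16.7 mmol/L in the fasted state, measured 1 week later, defined diabetes. The 3 control rats had received citrate buffer on 5 days, and all 6 were otherwise untreated as far as the labels say. Neither the age of the rats nor the interval to the collection of the retinas is given in the sources used here. This is a model of chemically induced loss of insulin, and each library comes from 1 rat with its own recorded body weight.

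Wnt proteins are secreted lipid-modified ligands that bind Frizzled receptors on neighbouring cells. With the coreceptor Lrp5 or Lrp6, a Frizzled blocks the destruction complex that contains Axin, so beta-catenin accumulates and activates genes together with the TCF and LEF transcription factors. Secreted Frizzled-related proteins and Wif1 bind the ligand outside the cell, and Dickkopf proteins occupy the coreceptors. In the retina the pathway is known above all for the growth of its blood vessels, where the ligand Norrin acts through Fzd4 and Lrp5, and for patterning of the eye margin during development.

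Expression was given as FPKM, the number of fragments scaled to gene length and to library size. The 6 libraries held between 12417686 and 19115426 rebuilt fragments, and 3 fragments on 1 kb of transcript amounted to 0.159 FPKM in the deepest and 0.248 FPKM in the shallowest. Gnat1, the rod transducin gene that marks photoreceptors of the labelled tissue, was between 3286 and 5146 FPKM in every library. Markers of cornea, iris and ciliary body summed to 17.4 FPKM in control 2 and to 23.5 FPKM in diabetic 1. In the other libraries they summed to between 5.52 and 9.70 FPKM. Control 3 stood apart by lens genes. The 11 lens markers summed to 409.6 FPKM in that library and to between 14.2 and 52.8 FPKM in the other 5, and the values of Lrp6, Fzd3, Frzb and Wif1 are also given without it. The difference between groups also followed the length of the gene over the whole table, as described below. In bulk tissue, fewer cells of a type and less RNA per cell cannot be told apart.

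No Wnt gene passed the test, and the 5 tested members at an unadjusted p below 0.05 (limma) lay among receptors and secreted inhibitors. The coreceptor gene Lrp6 and the Frizzled genes Fzd3 and Fzd7 had higher means in diabetic retina. The inhibitor genes Frzb and Wif1 had lower means. Beta-catenin (Ctnnb1) and the feedback gene Axin2 overlapped between the groups. Of the 43 members, 22 averaged 0.5 FPKM or more across libraries and were tested with limma on log2(FPKM + 0.5) together with all other genes. These were 4 ligands, 10 receptors, 5 secreted inhibitors and 3 genes of transduction, and none of them had a group mean below 0.5 FPKM in either group. After Benjamini-Hochberg adjustment over the 16363 genes tested, 0 of the 22 passed a threshold of 0.05, where the share passing among all genes was 0%. The smallest adjusted p of a member was 0.163. With voom on rebuilt fragments, 2 of all genes and 0 members passed. At an unadjusted p below 0.05 there were 5 of 22, or 22.7%, against 19.9% of all genes tested, which is close to the background. Groups did not overlap in 8 of 22, beside 26.2% of all genes, with 5 of them higher and 3 lower in diabetic retina, beside 12.7% and 13.6% of all genes. The members' median log2 difference was 0.03, beside 0.00 over all genes (0.000335 before rounding).

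**Figure D1:**
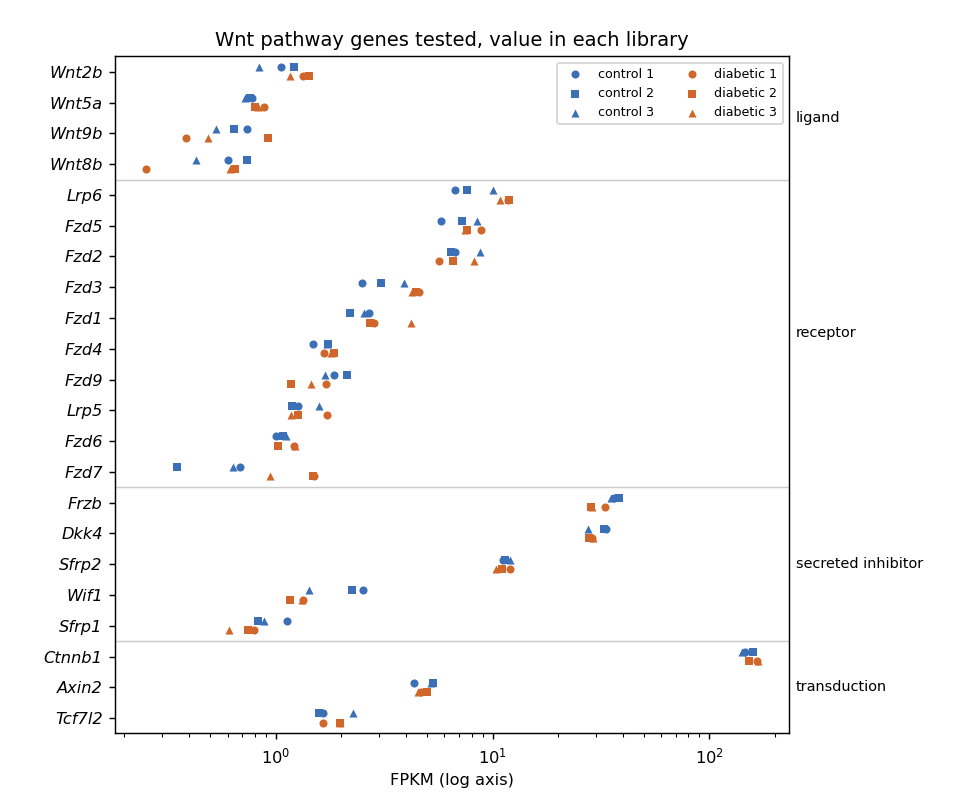
FPKM on a log axis for the 22 Wnt pathway genes tested, grouped by role, with 1 symbol for each of the 6 libraries (blue control, orange diabetic; circle, square and triangle for replicates 1, 2 and 3). Ligands lie near or below 1 FPKM, Frzb, Dkk4 and Sfrp2 above 10 FPKM, and Ctnnb1 above 140 FPKM.

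The levels of the roles were far apart. Summed over the 19 ligand genes, FPKM were 5.88, 5.08 and 4.22 in control rats 1, 2 and 3, against 4.57, 5.29 and 4.17 in diabetic rats 1, 2 and 3. The 11 receptor genes summed to 30.8, 33.1 and 40.5 FPKM in the controls and to 41.7, 40.0 and 41.6 FPKM in the diabetic libraries. Control 3 thus lay above diabetic 2, and the receptor sums overlapped. The 9 secreted inhibitor genes summed to 84.6, 85.7 and 77.6 FPKM in the controls and to 76.0, 69.9 and 70.1 FPKM in the diabetic libraries, without overlap. Without Frzb the inhibitor sums were 48.2, 47.3 and 42.3 FPKM against 43.0, 41.4 and 41.5 FPKM, and diabetic 1 lay above control 3. Without Dkk4 they stayed apart, at 51.3, 52.9 and 49.9 FPKM against 47.4, 42.0 and 41.2 FPKM. These sums were dominated by their most abundant genes and were not tested.

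Among the receptors, Lrp6, the coreceptor that is phosphorylated when a Wnt engages Frizzled, had the smallest p. It measured 6.70, 7.66 and 10.01 FPKM in control rats 1, 2 and 3, against 11.8, 11.9 and 10.8 FPKM in diabetic rats 1, 2 and 3. All diabetic values were above all control values, and control 3 was the control nearest to them. The means were 8.12 ± 1.70 and 11.5 ± 0.59 FPKM (SD, n = 3 each), a 1.42-fold ratio. The log2 difference was 0.49 with a standard error of 0.15 and a 95% interval from 0.14 to 0.85 (unadjusted p = 0.0123, adjusted p = 0.163 over all genes, limma). Without control 3 the log2 difference was 0.65 (adjusted p = 0.0566, limma), within a range of adjusted p from 0.0566 to 0.380 over all alternatives. Leaving out control 3 also raised the counts of all genes at an unadjusted p below 0.05 (limma). They went from 1498 higher and 1757 lower to 1886 higher and 2124 lower. The unadjusted p of Lrp6 was below 0.05 in all 19 alternatives. The table places Lrp6 (ENSRNOG00000006338) on chromosome 4 from 168194927 to 168323751, minus strand, under coordinates whose build was not stated. The other coreceptor gene, Lrp5, was at 1.27, 1.19 and 1.58 FPKM in the controls, against 1.73, 1.27 and 1.18 FPKM in the diabetic rats, and the groups overlapped with a log2 difference of 0.03 and a 95% interval from -0.44 to 0.50. Its sign changed in 5 of the 19 alternatives, and whether Lrp5 and Lrp6 differ in their response was not tested.

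Fzd3, a Frizzled known for axon guidance and cell polarity, was at 2.499, 3.07 and 3.92 FPKM in control 1, 2 and 3. The diabetic values were 4.57, 4.45 and 4.26 FPKM. Again the groups did not overlap, and control 3 was the highest control. The log2 difference was 0.44 with a standard error of 0.17 (unadjusted p = 0.0310, adjusted p = 0.210, limma). It was 0.59 without control 3, and among the 6 fits that left out a library the unadjusted p was below 0.05 only without control 3. In that fit more of all genes were below 0.05 as well. Fzd3 lies on chromosome 15 from 48601266 to 48670257 of the table, minus strand.

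Fzd7, a Frizzled known from stem and progenitor cells, was the least abundant receptor tested. It measured 0.687, 0.352 and 0.636 FPKM in the controls, from 33, 12 and 23 fragments, and 1.51, 1.49 and 0.938 FPKM in the diabetic libraries, from 81, 71 and 50 fragments. Every diabetic value exceeded every control value, and the ratio of the means was 2.35. On the log2(FPKM + 0.5) scale, where differences of scarce transcripts are compressed, the difference was 0.77 with a 95% interval from 0.19 to 1.36 (unadjusted p = 0.0165, adjusted p = 0.176, limma). With the rebuilt fragments in voom it was 1.24. Among the 6 fits that left out 1 library, the unadjusted p was below 0.05 without control 1, control 3 or diabetic 3 and above it in the other 3. Fzd7 (ENSRNOG00000016119) lies on chromosome 9 from 66305731 to 66308550, plus strand.

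**Figure D2:**
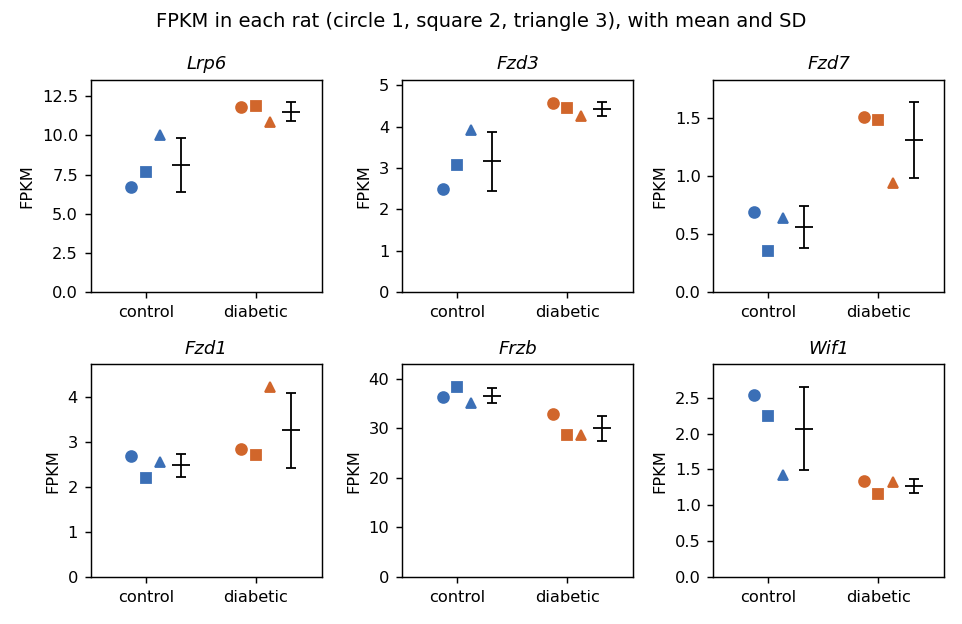
FPKM in each of the 3 control and 3 diabetic rats for 4 receptor genes and 2 inhibitor genes, with the mean and SD of each group beside the points and each vertical axis starting at 0. The groups do not overlap in any of the 6 panels, and control 3 (blue triangle) is the control nearest to the diabetic values in Lrp6, Fzd3, Frzb and Wif1.

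The remaining receptors lay within the spread between rats or close to it. Fzd1 was at 2.69, 2.20 and 2.55 FPKM in the controls, against 2.85, 2.71 and 4.22 FPKM in the diabetic rats. Its groups did not overlap, but diabetic 2 exceeded control 1 by little, and the log2 difference of 0.32 had a 95% interval from -0.13 to 0.76. Without diabetic 3, the highest value, it was 0.14. Fzd5, the second most abundant receptor here and a gene of retinal progenitors, was at 5.81, 7.22 and 8.48 FPKM in the controls, against 8.86, 7.60 and 7.45 FPKM in the diabetic rats, a log2 difference of 0.15. Fzd9 had a log2 difference of -0.30 with an interval from -0.73 to 0.13, Fzd2 had -0.09 and Fzd6 had 0.08. In Fzd5, Fzd9, Fzd2 and Fzd6 the groups overlapped, Fzd9 with 1.85, 2.14 and 1.68 FPKM against 1.70, 1.17 and 1.46 FPKM. Without diabetic 2 the difference of Fzd9 was -0.20. Fzd8 was not tested, with at most 5 fragments in any library. Of the 10 receptors tested, 8 had a positive log2 difference, beside 50.1% of all genes, and the number was 5 once the length trend was removed, 7 with median centring or quantile normalization and 9 with TPM. At an unadjusted p below 0.05, 3 were higher and 0 were lower, beside 9.15% and 10.7% of all genes in these directions.

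Fzd4, the receptor of Norrin in vessel growth, was at 1.48, 1.74 and 1.73 FPKM in the controls, against 1.66, 1.86 and 1.81 FPKM in the diabetic rats. The groups overlapped, and the log2 difference was 0.08 with an interval from -0.29 to 0.45. Tspan12, a tetraspanin that takes part in Norrin signalling through Fzd4, ran from 5.41 to 7.05 FPKM in the controls, against from 5.34 to 6.23 FPKM in the diabetic rats (a log2 difference of -0.08). The Norrin gene Ndp itself was below the filter, at 0.213, 0.0859 and 0.122 FPKM in the controls, against 0.136, 0.0920 and 0.165 FPKM in the diabetic rats. None of the genes of this arm that were tested (Fzd4, Lrp5 and Tspan12) had an unadjusted p below 0.05.

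Frzb, a Frizzled-related protein that captures Wnt outside the cell, was the most abundant inhibitor. It was at 36.4, 38.3 and 35.2 FPKM in control rats 1, 2 and 3, against 33.0, 28.6 and 28.6 FPKM in diabetic rats 1, 2 and 3. The highest diabetic library lay below the lowest control. The means were 36.6 ± 1.58 and 30.1 ± 2.53 FPKM (SD, n = 3 each). The log2 difference was -0.28 with a standard error of 0.09 and an interval from -0.49 to -0.08 (unadjusted p = 0.0122, adjusted p = 0.163, limma). It was -0.31 without control 3 and between -0.35 and -0.25 when any 1 library was left out. The unadjusted p was below 0.05 in 18 of 19 alternatives and was 0.136 with TPM, where the difference was -0.15. Frzb (ENSRNOG00000007765) lies on chromosome 3 from 67635607 to 67668772 of the table, minus strand.

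Wif1, the Wnt inhibitory factor, was at 2.54, 2.25 and 1.43 FPKM in the controls, against 1.34, 1.16 and 1.32 FPKM in the diabetic rats. Control 3 lay just above the diabetic values, and the other controls were well above them. The log2 difference was -0.51 with an interval from -1.02 to -0.0040 (unadjusted p = 0.0486, adjusted p = 0.249, limma). Without control 3 it was -0.71. Among the 6 fits that left out 1 library, the unadjusted p was below 0.05 only without control 3. That fit also put more of all genes below 0.05. Wif1 (ENSRNOG00000004476) lies on chromosome 7 from 63094911 to 63165159, plus strand. Sfrp1, which binds both Wnt and Frizzled, was at 1.13, 0.829 and 0.882 FPKM in the controls, against 0.796, 0.743 and 0.612 FPKM in the diabetic rats. Its groups did not overlap either, with a log2 difference of -0.25 and a wide interval from -0.74 to 0.24, and a difference of -0.16 without control 1.

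Dkk4, a Dickkopf that blocks the coreceptors, was at 33.3, 32.7 and 27.7 FPKM in the controls, against 28.6, 28.0 and 28.9 FPKM in the diabetic rats, a log2 difference of -0.12. The groups overlapped. Its level was unlike that of the other Dickkopf genes selected. Dkk1 was listed at 0 in all 6 libraries and Dkk2 had at most 9 fragments in any library. In the table Dkk4 lies 280 nt from Polb, a DNA polymerase gene on the opposite strand with a mean of 39.4 FPKM, and the library kit is not stated to mark strand. The source of the fragments assigned to Dkk4 was not tested. Sfrp2, another Frizzled-related protein, stayed between 10.4 and 12.1 FPKM in all libraries (log2 difference -0.05). Sfrp4 and Sfrp5 had at most 14 and 6 fragments in any library. All 5 inhibitors tested had a negative log2 difference, beside 50.1% of all genes with a positive one, and with TPM 3 of the 5 did. At an unadjusted p below 0.05, 2 were lower and 0 were higher, beside the shares of all genes given for the receptors. Of 9 further inhibitors tested that are no members, 6 were above 0 and 3 below.

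**Figure D3:**
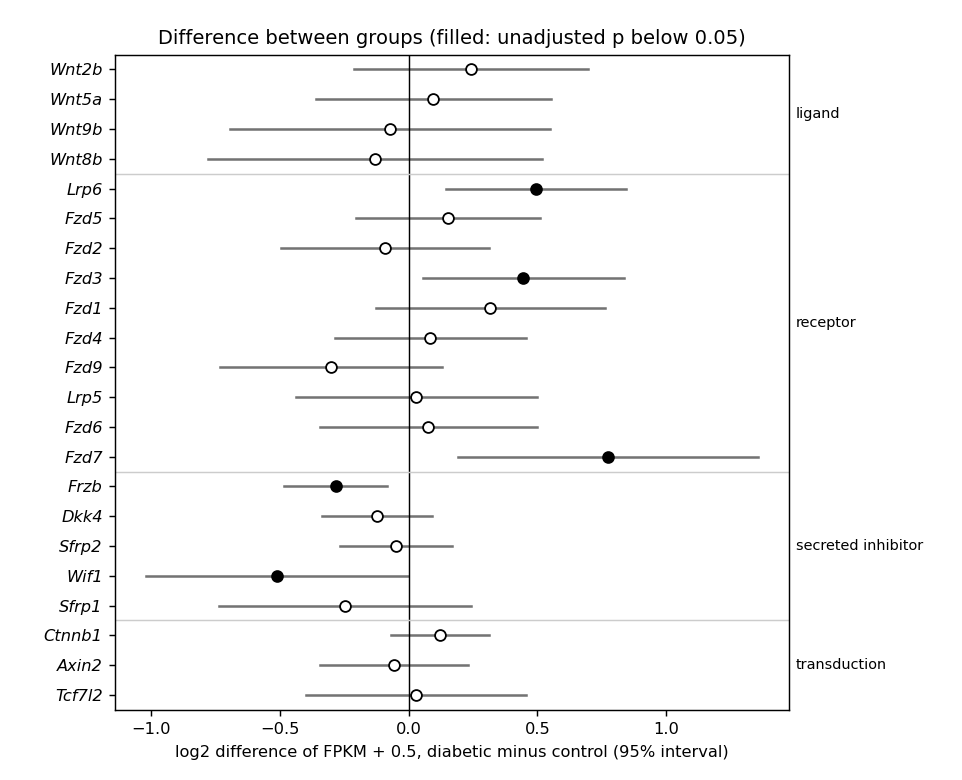
Log2 difference of FPKM + 0.5, diabetic minus control, for the 22 genes tested, with 95% intervals from limma and filled points where the unadjusted p was below 0.05. The 5 filled points are Lrp6, Fzd3 and Fzd7 on the right and Frzb and Wif1 on the left, and none passed after adjustment.

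Ligand messenger RNA was scarce. Summed over 19 genes, a library held between 161 and 277 fragments of ligands, against between 1423 and 2958 fragments of the 11 receptors. Wnt2b, a ligand of the ciliary margin, was the most abundant, at 1.06, 1.21 and 0.835 FPKM in the controls, against 1.33, 1.43 and 1.16 FPKM in the diabetic rats. The groups overlapped, with a log2 difference of 0.24 and an interval from -0.21 to 0.70, and a difference of 0.14 without control 3. Wnt2b overlaps St7l, a gene on the opposite strand at 17.1 FPKM. Reads from a stretch shared by the pair cannot be told apart without strand, and the extent of the overlap was not examined. Wnt5a, the prototype of ligands that act without beta-catenin, was at 0.776, 0.762 and 0.719 FPKM in the controls, against 0.884, 0.804 and 0.827 FPKM in the diabetic rats. Its groups did not overlap, but the difference was small, at 0.10 with an interval from -0.36 to 0.55. Wnt8b and Wnt9b had log2 differences of -0.13 and -0.07, and in both the groups overlapped.

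The other 15 ligands were below the filter. Wnt3a and Wnt10b were listed at 0 in every library, and Wnt1 had 1 fragment in all. Wnt16 stood out among them. It had 29, 9 and 5 fragments in control 1, 2 and 3 and 6, 3 and 2 fragments in diabetic 1, 2 and 3, corresponding to 1.02, 0.448 and 0.235 FPKM against 0.190, 0.107 and 0.0637 FPKM. The groups did not overlap, but control 3 and diabetic 1 were close, and 2 diabetic libraries were at or below 3 fragments. In the fit without a filter, Wnt16 had a log2 difference of -0.72 (unadjusted p = 0.0354, adjusted p = 0.295, limma). Wnt11 ran from 6 to 23 fragments, Wnt5b from 5 to 14, Wnt10a from 5 to 11 and Wnt3 from 3 to 11, with overlapping groups. A total of 6 members never exceeded 3 fragments in any library, and differences in these were not detectable at this depth.

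In the intracellular arm, Ctnnb1, which encodes beta-catenin, was at 146.5, 159.2 and 141.1 FPKM in the controls, against 166.1, 151.9 and 167.9 FPKM in the diabetic rats. The groups overlapped, and the log2 difference was 0.12 with an interval from -0.07 to 0.31 (adjusted p = 0.445, limma). The unadjusted p of Ctnnb1 was below 0.05 in 2 of the 19 alternatives. It was 0.00528 with TPM (log2 difference 0.26) and 0.0020 with quantile normalization (0.30), both by limma. The adjusted p was 0.114 with TPM and 0.143 with quantile normalization, and TPM also moved the median over all genes to 0.13. With median centring the unadjusted p was 0.402 (log2 difference 0.07, limma), and with voom it was 0.0668 (0.17). After removal of the length trend the log2 difference was 0.12. Axin2, a negative regulator that beta-catenin itself induces and a common readout of the pathway, was at 4.35, 5.33 and 5.20 FPKM in the controls, against 4.69, 4.97 and 4.54 FPKM in the diabetic rats. The log2 difference was -0.06 with an interval from -0.35 to 0.23, so smaller differences in either direction were not resolved. Tcf7l2 had a log2 difference of 0.03, with 1.65, 1.59 and 2.28 FPKM in the controls, against 1.66, 1.98 and 1.97 FPKM in the diabetic rats. Lef1, another transcription factor of the family, was too low to be tested. It was at 0.410, 0.225 and 0.363 FPKM in control, from 18, 7 and 12 fragments, and at 0.204, 0.183 and 0.205 FPKM in diabetic retina, from 10, 8 and 10 fragments. Its groups did not overlap, and without a filter the log2 difference was -0.25 (unadjusted p = 0.0878, limma).

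Promoters are shown for Axin2, the readout gene that overlapped between groups, and for Fzd7, Frzb and Wif1, which are the members of unadjusted p below 0.05 with an entry in the sequence table. They run from 250 bases before to 6 bases after the start of the gene, 5′ to 3′ on the gene's strand, in RefSeq's GRCr8 assembly. Capitals mark the letters of the TCF and LEF core motif, searched on both strands as the letters CTTTG followed by 2 letters that are each either A or T. No other motif was searched.
Axin2, chr10:94398535-94398790, plus strand: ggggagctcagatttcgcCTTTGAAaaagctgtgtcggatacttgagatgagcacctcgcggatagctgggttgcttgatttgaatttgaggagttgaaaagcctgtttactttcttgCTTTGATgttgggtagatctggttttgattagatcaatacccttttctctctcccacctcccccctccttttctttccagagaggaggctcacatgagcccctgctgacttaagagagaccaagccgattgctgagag
Fzd7, chr9:68425288-68425543, plus strand: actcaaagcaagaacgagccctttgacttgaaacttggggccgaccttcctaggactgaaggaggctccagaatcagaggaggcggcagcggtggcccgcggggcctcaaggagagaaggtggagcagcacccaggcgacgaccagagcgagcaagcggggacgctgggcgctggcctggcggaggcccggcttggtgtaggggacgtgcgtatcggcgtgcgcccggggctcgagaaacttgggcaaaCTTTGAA
Frzb, chr3:85772091-85772346, minus strand: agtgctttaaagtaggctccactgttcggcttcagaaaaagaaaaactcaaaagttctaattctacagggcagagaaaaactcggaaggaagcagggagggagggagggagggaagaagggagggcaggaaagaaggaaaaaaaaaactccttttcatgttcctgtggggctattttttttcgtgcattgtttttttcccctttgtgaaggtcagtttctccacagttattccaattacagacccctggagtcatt
Wif1, chr7:58433329-58433584, plus strand: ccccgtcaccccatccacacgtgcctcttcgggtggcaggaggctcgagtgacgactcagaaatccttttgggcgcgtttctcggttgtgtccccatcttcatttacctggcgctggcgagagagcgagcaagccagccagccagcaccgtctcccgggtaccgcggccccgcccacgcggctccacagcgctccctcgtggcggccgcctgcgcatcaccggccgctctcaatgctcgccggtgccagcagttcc
Axin2 held the motif at 232 and 132 bases before its start, and Fzd7 held it once, beginning 1 base before its start. No match was found in the windows of Frzb and Wif1. Of the 43 members, 31 had a promoter in the table, and 6 of these, or 19.4%, held a match within 300 bases, beside 17.1% of all 33469 promoters in the table. A match is a run of letters, not evidence of binding, and the share among Wnt genes was close to that among all genes.

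Across the genes tested, the log2 difference between groups rose with gene length, from below 0 in short genes to above 0 in long ones. Apart from the 1637 shortest genes, of 42 to 420 nt, whose median log2 difference was 0.01, the median went from -0.15 in the 1637 genes of 421 to 953 nt to 0.17 in the 1637 genes of 5083 nt or more. In those longest genes control 3 lay on the side of the diabetic libraries, with a median deviation of 0.11 beside values from 0.13 to 0.20 in them. The Wnt genes tested had a median length of 2784 nt, against 2100 nt for all genes. Lrp6 is 5634 nt long in the table, Fzd7 2820 nt, Fzd3 2748 nt, Frzb 2737 nt and Wif1 2242 nt. After each library's dependence on gene length had been subtracted, the log2 difference of Lrp6 was 0.36 (unadjusted p = 0.0239), that of Fzd3 0.42 (0.0337) and that of Fzd7 0.75 (0.0187), all by limma. Those of Frzb and Wif1 were -0.30 (unadjusted p = 0.00781) and -0.50 (0.0505). These directions were the same as before the removal, while the signs of Fzd4, Fzd6, Lrp5, Tcf7l2 and Wnt5a turned negative.

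**Figure D4:**
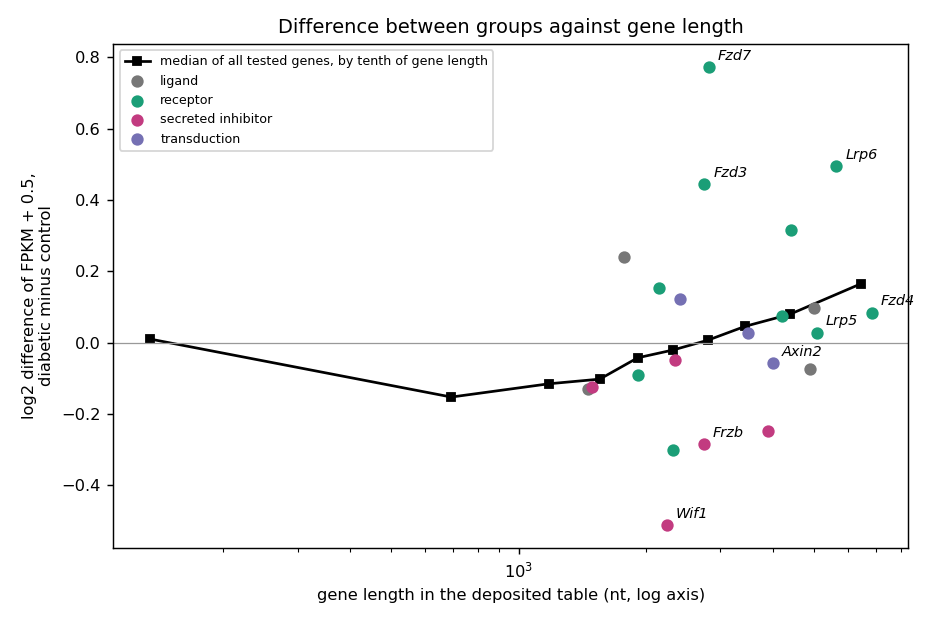
Log2 difference (diabetic minus control) against gene length on a log axis, with the 22 Wnt genes as points coloured by role and the medians of all tested genes in 10 bins of gene length as black squares. The black line starts at 0.01 in the shortest genes, drops to -0.15 and climbs to 0.17 in the longest, and Lrp6, Fzd3 and Fzd7 lie above it while Frzb and Wif1 lie below it.

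Rescaling to TPM moved the median over all genes to 0.13 and that of the Wnt genes to 0.15. It changed the members at an unadjusted p below 0.05 from 3 higher and 2 lower to 4 higher and 0 lower, with Ctnnb1 added and Frzb and Wif1 lost. Over all genes that split went from 1498 higher and 1757 lower to 3009 higher and 692 lower with TPM, to 2213 and 1201 with voom and to 1140 and 2325 with median centring. Quantile normalization gave 3 higher and 2 lower members, with Ctnnb1 in place of Fzd3. Directions of Lrp6, Fzd3, Fzd7, Frzb and Wif1 were the same in every alternative in which they were fitted.

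**Figure D5:**
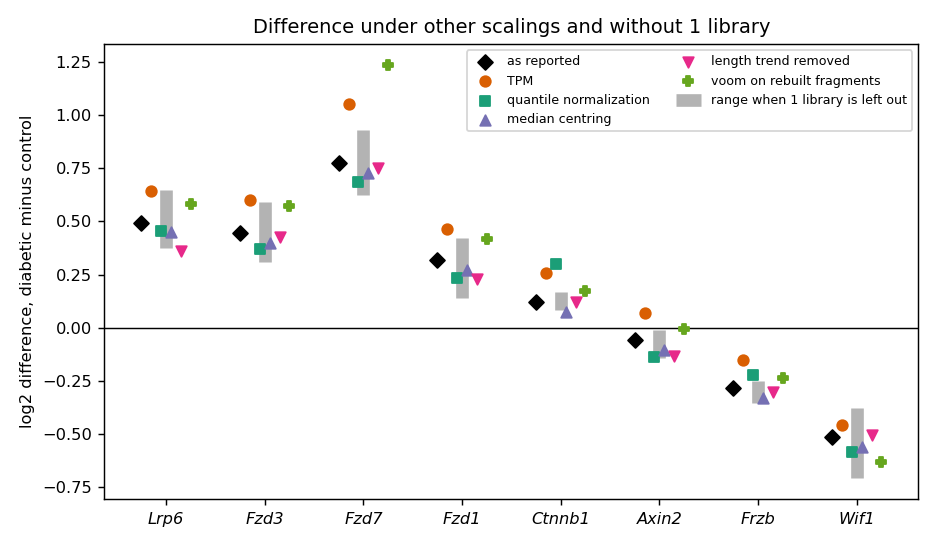
Log2 difference (diabetic minus control) of 8 Wnt genes as reported (black diamonds), under 5 other scalings (coloured symbols), and as the range when 1 library is left out (grey bars). Lrp6, Fzd3, Fzd7 and Fzd1 lie above 0 and Frzb and Wif1 below 0 under all of them, whereas Axin2 lies above 0 with TPM.

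Other genes of the pathway came from lists of 94 genes that are no members, of which 72 were tested and 0 passed over all genes. At an unadjusted p below 0.05, 11 were higher and 3 were lower in diabetic retina, beside 9.15% and 10.7% of all genes in these directions. Their median log2 difference was 0.11, beside 0.00 over all genes. Of these, 45 were above 0 and 27 below, beside 50.1% of all genes above 0. The part of gene length in this count was not tested. In the list of cytoplasmic transduction, 11 of 18 had a difference above 0 and 7 below, and 3 higher and 2 lower genes had an unadjusted p below 0.05. Tnks, a tankyrase that marks Axin for degradation, was at 9.11, 11.7 and 16.3 FPKM in the controls, against 20.3, 19.4 and 21.3 FPKM in the diabetic rats (a log2 difference of 0.73, adjusted p = 0.142, limma). Apc, a scaffold of the destruction complex, was at 14.4, 14.6 and 22.1 FPKM in the controls, against 23.9, 28.3 and 26.1 FPKM in the diabetic rats (a log2 difference of 0.63). Gsk3b, its kinase, was at 13.5, 16.3 and 22.8 FPKM against 25.4, 24.6 and 24.5 FPKM (0.52). In Tnks, Apc and Gsk3b the groups did not overlap, and control 3 was the highest control, as it was in Lrp6 and Fzd3. Tnks2, the other tankyrase, went the other way, with 1.51, 3.50 and 5.22 FPKM in the controls, against 0.421, 0.354 and 1.30 FPKM in the diabetic rats (a log2 difference of -1.67).

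Among the R-spondin receptors, Lgr4 was at 30.4, 32.0 and 33.9 FPKM in the controls, against 36.8, 43.7 and 43.4 FPKM in the diabetic rats (a log2 difference of 0.36, adjusted p = 0.142, limma). Lgr5, both an R-spondin receptor and a Wnt target, had a log2 difference of 0.43. The groups did not overlap in either gene. The R-spondin ligands Rspo1, Rspo2, Rspo3 and Rspo4 were all below the filter. Of all genes tested, 19.9% had an unadjusted p below 0.05 (limma), 9.15% higher and 10.7% lower. The counts of the lists that follow stand beside these shares. In the list of target genes, 10 were tested, and 2 were at an unadjusted p below 0.05, both higher. These were Lgr5 and Ccn4, a secreted matrix-associated protein, which was at 1.36, 2.13 and 1.85 FPKM in the controls, against 3.71, 2.83 and 3.60 FPKM in the diabetic rats (a log2 difference of 0.77, adjusted p = 0.137, limma). The targets Nkd1, Rnf43, Tcf7, Apcdd1, Ccnd1, Cd44 and Bambi overlapped between the groups, as did Axin2. Of 11 tested genes of planar cell polarity, 8 had a log2 difference above 0 and 3 below, and Prickle2 (0.43) and Intu (0.56) had an unadjusted p below 0.05. Of 14 nuclear partners, 7 were above 0 and 7 below, and Chd8 (0.32), Ctbp2 (0.25) and Pygo2 (-0.22) had an unadjusted p below 0.05. With the length trend subtracted, Chd8 was at 0.12, Prickle2 at 0.24 and Apc at 0.41. With TPM, Pygo2 was at -0.087 and Ctbp2 at 0.39. Of 9 further inhibitors tested, 6 were above 0 and 3 below, and Shisa2 (0.72), whose groups overlapped, had an unadjusted p below 0.05. None of these genes passed after adjustment. None of 8 alternative receptors and coreceptors and none of 4 genes of Wnt secretion and spreading had an unadjusted p below 0.05.

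No marker of any cell type passed after adjustment over all genes, and the counts that follow give only the sign of the log2 difference. Among rod markers, Gnat1 was at 4779, 5127 and 5146 FPKM in the controls, against 3638, 3286 and 3607 FPKM in the diabetic rats, and the groups did not overlap. Means of Sag, Pde6a, Pde6b and Nrl were lower as well, with log2 differences from -0.31 to -0.15. Of 6 cone markers 4 were lower, with sums between 638.9 and 728.3 FPKM against between 546.8 and 613.2 FPKM. Opn1sw, the short-wavelength cone opsin, was at 15.5, 17.3 and 14.0 FPKM in the controls, against 30.2, 20.0 and 34.6 FPKM in the diabetic rats, opposite in sign to those 4. Of 7 tested pericyte and smooth muscle markers 5 were lower, with sums of all 8 between 14.2 and 19.1 FPKM against between 10.1 and 12.9 FPKM. Of 8 Muller glia markers 3 were lower, but these included the abundant Glul and Apoe, and the sums were between 1395 and 1591 FPKM against between 968.5 and 1346 FPKM. Of 7 amacrine markers 6 were higher, with overlapping sums between 265.5 and 293.7 FPKM in the controls, against between 286.1 and 323.1 FPKM in the diabetic rats. Pigment epithelium markers, 5 of 7 tested lower, overlapped in their sums, from 47.6 to 97.4 FPKM in the controls, against from 41.6 to 95.8 FPKM in the diabetic rats. Ttr, the largest part of these sums, ran from 30.4 to 73.0 FPKM against from 29.8 to 74.3 FPKM. Tyrp1 (log2 difference -1.25) and Pmel (-1.03) were lower without overlap, Pmel with control 3 at 1.28 and diabetic 1 at 1.27 FPKM. The other tested markers of this list overlapped. All 11 lens markers had a negative log2 difference, with sums of 17.8 and 47.8 FPKM in controls 1 and 2 and 409.6 FPKM in control 3, against 14.2, 52.8 and 37.6 FPKM in the diabetic rats. The lens sums overlapped both with and without control 3. Of the endothelial markers, 2 of 5 tested were higher, the sums overlapped (from 55.9 to 69.5 against from 55.1 to 74.3 FPKM), and Cldn5 was listed at 0 in all libraries. Kdr, the largest part of these sums, ran from 45.2 to 53.8 FPKM in the controls, against from 42.4 to 63.4 FPKM in the diabetic rats. Esam (log2 difference -0.30) was lower without overlap, and the other tested endothelial markers overlapped. Of 6 microglia markers 5 were lower, C1qa (-0.73) without overlap, and of 6 bipolar markers 5 were higher. Ganglion cell markers were lower in 4 of 7, and all 3 horizontal cell markers were higher. Astrocyte and oligodendrocyte markers were split evenly, and Pdgfra, the 1 fibroblast marker tested, was higher without overlap. Of 5 tested markers of cornea, iris and ciliary body 4 were higher, Optc (1.00) without overlap, and the sums overlapped. The part of any of these cell types in the values of Frzb, Wif1, Lrp6, Fzd3 and Fzd7 was not tested.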

How the data were processed

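Polyadenylated RNA of 6 retinas was sequenced, and the authors deposited 1 table of FPKM per gene and library. The submitters' processing notes name HISAT2 2.0.5 as a tool. Neither the counting tool nor the annotation and its build is stated, so the table's coordinates are printed without a build. Columns named T1DM were matched to the samples titled Diabetic by replicate number. Fragments were rebuilt from the FPKM steps and gene lengths, and 100% came out within 0.05 of a whole number. Within each group, the chi-square between libraries was at least 10.7 times its degrees of freedom, so all 6 were counted separately.

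The 16363 genes that averaged 0.5 FPKM or more were compared by limma 3.58.1 (R 4.3.3) on the scale log2(FPKM + 0.5) (eBayes with trend, 2-sided, Benjamini-Hochberg over all genes tested), after a test on simulated data. Unadjusted p-values were used only to describe genes, beside the share of all genes below 0.05. Members, pathway lists and marker lists were chosen with earlier results of these data known. The rule named members at an unadjusted p below 0.05, those with groups apart and a mean of at least 1 FPKM, the 2 most abundant of each role, and always Ctnnb1, Lrp5, Lrp6, Fzd4, Axin2, Lef1 and Tcf7l2. It also named up to 4 list genes of smallest p. Other genes, such as Wnt16, Wnt11, Sfrp1, Fzd9 and the R-spondins, were chosen after their values were seen. Alternatives were other pseudocounts, filters, scalings (TPM, quantile normalization, median centring, removal of the length trend), voom, other limma settings, a replicate block and each library left out. Same-numbered libraries correlated between -0.0756 and 0.000607 in their deviations from group means, so the numbers were not treated as pairs. Promoters came from RefSeq's GRCr8 tables. Figures were drawn with matplotlib 3.10.9. Methylation data were not analysed here. The summed level of the rod marker list is not reported here.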

Additional observations from a re-analysis of the deposited data

How the results depend on the processing

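No member passed over all genes in any of the 19 alternatives. The count at an unadjusted p below 0.05 and lower in diabetic retina was 2 as reported. It was 0 with TPM, and 1 with a filter at 1 FPKM, after removal of the length trend or with the replicate block, in which Fzd3 and Wif1 were lost. The replicate block left 2 members higher and moved no adjusted call. When each library was left out in turn, 0 to 0 members passed, 1 to 3 were higher and 1 to 3 lower at that level. The members' median log2 difference (0.028 as reported) was 0.15 under TPM, -0.041 after removal of the length trend and -0.018 with median centring. It was -0.044 with quantile normalization and 0.087 with voom, and between -0.021 and 0.080 with 1 library left out. Without a filter it stayed at 0.028 over the same 22 members. It was -0.0074 once the 18 scarce members above 0 FPKM were added to them. Of 660 values of 35 genes, 637 had the same sign and side of the threshold, and 23 values of 11 genes changed sign. Under TPM the sign changed in Axin2 (0.070), Dkk4 (0.012), Fzd2 (0.038) and Sfrp2 (0.084). After removal of the length trend it changed in Fzd4 (-0.085), Fzd6 (-0.0063), Lrp5 (-0.085), Tcf7l2 (-0.025) and Wnt5a (-0.015). It changed in Lrp5 (-0.018) and Tcf7l2 (-0.019) with median centring and in Lrp5 (-0.046) and Tcf7l2 (-0.042) with quantile normalization. With 1 library left out, values ran from -0.23 (without diabetic 3) to 0.037 (without control 3) in Fzd2, from -0.096 (without diabetic 1) to 0.12 (without control 3) in Lrp5, from -0.048 (without control 2) to 0.16 (without control 3) in Tcf7l2, from -0.24 (without control 3) to 0.065 (without diabetic 1) in Wnt8b and from -0.27 (without diabetic 2) to 0.065 (without diabetic 1) in Wnt9b. The cause of these changes was not tested. With 3 rats a group, an exact two-sided test of a single gene cannot give a p below 0.1. The 21 members below the filter were limited by depth, with 60 to 136 fragments in all per library.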

Other observations

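Dkk3, a secreted glycoprotein of the Dickkopf family that was kept apart from the members, was far more abundant than any Wnt inhibitor among them, between 199.8 and 280.2 FPKM over the 6 libraries. Rspo3, an R-spondin ligand, had between 1 and 4 fragments in a library, and its 3 control values (0.0764, 0.108 and 0.102 FPKM) lay above its 3 diabetic values (0.0342, 0.0576 and 0.0172 FPKM), which was not tested at this depth. Myc, a target gene below the filter, was at 0.196, 0.0922 and 0.203 FPKM in control and at 0.215, 0.439 and 0.275 FPKM in diabetic retina, from 3 to 20 fragments. Nkd1, a feedback inhibitor of Dishevelled, reached 27.6 FPKM in diabetic rat 2, while the other 5 rats lay between 11.4 and 16.3 FPKM.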
